A study of Homo sapiens with 45 samples.

Results

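RPE65 and 9 further genes of retinoid metabolism and signalling were described in HCT116 cells, a human line established from a colon cancer, with and without depletion of HNRNPK by siRNA. The 10 genes, RPE65, RDH10, RDH11, DHRS3, DHRS9, ALDH1A1, ALDH1A3, CYP26B1, RARA and RARG, were found by symbol among the 28278 gene names of the count table, and each was also listed in the separate tables of the Scramble controls. RPE65 was chosen because it was read well in control libraries of a colon line and was lower after HNRNPK siRNA, so its values in comparisons with the siNTC5 or siHNRNPK libraries are a description without a test. The other 9 were chosen by their place in the pathway.

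Vitamin A reaches cells as retinol, which LRAT stores as retinyl esters. In the retinal pigment epithelium RPE65 cleaves and isomerises those esters to 11-cis-retinol, the step that feeds the visual cycle, and it is best known from that tissue. Elsewhere retinol dehydrogenases such as RDH10 make retinal, ALDH1A enzymes oxidise it to retinoic acid, CYP26 enzymes remove retinoic acid, and the receptors RARA, RARB and RARG carry its signal to genes together with RXR partners.

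All cells received 25 nM siRNA with a lipid reagent for 72 hours. The groups used here were 4 libraries titled siNTC5 and 2 titled Scramble, all labelled as nontargeting control siRNA, and 4 titled siHNRNPK, labelled as HNRNPK siRNA. In siNTC5 and siHNRNPK, replicates 1 and 2 were made with the TruSeq stranded mRNA kit and replicates 3 and 4 with the Stranded mRNA Ligation kit, from RNA purified on a Maxwell instrument. The Scramble libraries were TruSeq libraries from RNA purified with RNeasy columns, and they came as separate count tables. Chromatin was profiled by ChIP for lamin B1 (LMNB1), H3K9me2, H3K9me3 and H3K27me3, of which 7 lists of called domains were used. No label says that replicates were separate cultures, so p values measure the spread between these libraries only.

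Upstream sequences are printed for RPE65, because its fitted change was the largest in size among the 9 fitted in siHNRNPK against siNTC5, for DHRS9 and CYP26B1, because a listed chromatin domain covered at least 50% of the gene body under 1 siRNA and not under the other, and for RARG, the receptor with the larger difference. Each line gives the 250 bases before the RefSeq start, 5′ to 3′ on the gene's strand, in GRCh38.p14, taken at the outermost start where RefSeq lists several. Capitals mark CCCTCCC or its reverse complement GGGAGGG, a poly-C run of the kind that the K homology domains of HNRNPK bind in RNA and single-stranded DNA, and TATAAA, the TATA box core. The windows are chr1:68449955-68450204 (minus strand) for RPE65, chr2:169066827-169067076 (plus strand) for DHRS9, chr2:72147863-72148112 (minus strand) for CYP26B1 and chr12:53232210-53232459 (minus strand) for RARG.
RPE65: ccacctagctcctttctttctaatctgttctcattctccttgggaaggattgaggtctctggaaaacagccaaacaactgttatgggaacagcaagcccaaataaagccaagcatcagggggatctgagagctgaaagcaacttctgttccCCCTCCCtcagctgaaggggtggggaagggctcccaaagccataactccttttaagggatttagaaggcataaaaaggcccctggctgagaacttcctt
DHRS9: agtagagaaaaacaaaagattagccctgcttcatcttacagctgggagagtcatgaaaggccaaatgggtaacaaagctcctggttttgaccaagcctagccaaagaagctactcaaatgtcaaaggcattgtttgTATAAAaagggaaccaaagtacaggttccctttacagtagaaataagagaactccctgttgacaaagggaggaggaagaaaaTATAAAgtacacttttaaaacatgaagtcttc
CYP26B1: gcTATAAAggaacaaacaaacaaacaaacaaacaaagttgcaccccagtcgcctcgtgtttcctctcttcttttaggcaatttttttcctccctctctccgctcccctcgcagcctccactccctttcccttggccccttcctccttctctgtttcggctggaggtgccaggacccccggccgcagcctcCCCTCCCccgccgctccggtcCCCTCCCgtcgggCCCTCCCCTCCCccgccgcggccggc
RARG: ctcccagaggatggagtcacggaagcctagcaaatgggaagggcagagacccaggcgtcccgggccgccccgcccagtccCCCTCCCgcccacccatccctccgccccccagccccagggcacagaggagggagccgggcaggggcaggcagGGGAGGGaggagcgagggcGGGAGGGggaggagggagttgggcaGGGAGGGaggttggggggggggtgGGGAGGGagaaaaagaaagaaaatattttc

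The RPE65 window held 1 CCCTCCC, 99 bases before the start, and no TATAAA. RARG held 5 matches to CCCTCCC on either strand and CYP26B1 held 4, of which the pair nearest the start overlap by 2 bases. DHRS9 held none, and it held TATAAA at 114 and at 32 bases before the start. Among the other members with a RefSeq entry, ALDH1A3 held 3 and DHRS3 held 1, while RDH11, ALDH1A1 and RARA held none. No upstream sequence of RDH10 was used here. For comparison, 23.5% of 27305 RefSeq windows of this length held CCCTCCC on either strand and 11.2% held TATAAA. The motif was in 33.1% of the windows of genes lower after HNRNPK siRNA, 27.9% of those higher and 29.0% of those not called.

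The RPE65 and DHRS9 windows held no CG dinucleotide, which was so in 6.38% of all windows, where the median was 10. The CG content of the others printed was 16 pairs in CYP26B1 and 10 in RARG. The hexamer AGGTCA, a core site of the kind that retinoic acid receptors bind, was searched on both strands along with AGTTCA, then with GGGTCA, and also with GGTTCA. RARA held 2 and no other member window held any, against 34.1% of all windows. Among tested genes the share was 27.6% of those lower after HNRNPK siRNA, 29.2% of those higher and 28.1% of those not called. Direct repeats of such hexamers with 5, 2 or 1 bases between them were in no member window and in 0.0696%, 0.0366% and 0.0916% of all windows. These matches describe letters only, and their absence from a window says nothing of a factor.

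Total counts were 14810376 to 23633851 in siNTC5, 12107280 to 15255556 in siHNRNPK and 55007171 to 59209169 in Scramble. HNRNPK itself stood at 819 to 968 CPM (read counts scaled to a common library size, with TMM over the 10 libraries) in siNTC5, 815 and 851 in Scramble and 156 to 250 in siHNRNPK. Of 9 colon epithelium markers, EPCAM, CDH1, KRT8 and KRT18 were read well in every library and rose in siHNRNPK against siNTC5, by log2 changes of 0.66 to 1.41. They also stood above every siNTC5 library in Scramble. CDH1 was at 171 and 153 CPM in Scramble and overlapped siHNRNPK (siHNRNPK against Scramble 0.007, adjusted p = 0.915, edgeR). KRT19 fell in siHNRNPK against siNTC5, from 601 to 945 CPM to 273 to 393 (-1.27, adjusted p = 1.36e-12, edgeR). It stood at 1507 and 1550 CPM in Scramble. CDX2 overlapped between siNTC5 and siHNRNPK, at 10.4 to 13.5 and 9.06 to 14.1 CPM, and was at 21.1 and 20.3 in Scramble. KRT20 had no count in the siNTC5 and siHNRNPK libraries but was at 2.34 and 2.08 CPM in Scramble, and VIL1 and LGALS4 were near 0. The list summed to 2696 to 3129 CPM in siNTC5, 4404 to 5399 in siHNRNPK and 4161 to 4266 in Scramble. Fibroblast markers summed to 46.1 to 76.4, 75.8 to 122 and 34.9 to 39.5 CPM, mostly COL1A1, and leukocyte markers to under 1.2 CPM in every library. COL1A1 rose in siHNRNPK against siNTC5 (0.69, adjusted p = 8.5e-09, edgeR), whereas VIM fell from 2.30 to 3.47 CPM to 0.743 to 1.14 (-1.67, adjusted p = 2.97e-06, edgeR). Their part in the results below was not tested.

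RPE65 (chr1:68428822-68449954, minus strand), the retinoid isomerohydrolase, was read at 42.9, 53.8, 41.6 and 49.1 CPM in siNTC5 replicates 1 to 4. It stood at 6.38, 5.28, 3.19 and 3.68 CPM in siHNRNPK replicates 1 to 4, and at 16.2 and 15.0 CPM in the Scramble libraries. The 3 sets of libraries did not overlap, with siNTC5 highest, Scramble between and siHNRNPK lowest. Groups did not overlap for 56.5% of genes in siHNRNPK against siNTC5, 71% in Scramble against siNTC5 and 82.4% in siHNRNPK against Scramble. The counts behind these values were 622 to 1289, 38 to 97, and 691 to 809 reads, so the lowest library still rested on 38.

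The mean was 46.9 ± 5.67 CPM (SD, n = 4) in siNTC5, 4.63 ± 1.47 (SD, n = 4) in siHNRNPK and 15.6 ± 0.86 (SD, n = 2) in Scramble. RPE65 in siHNRNPK was thus 9.87% of siNTC5, 12.0% within the TruSeq libraries and 7.57% within the Ligation libraries. The log2 fold change fitted by edgeR with kit in the model was -3.32 with a standard error of 0.13, the 8th lowest of 13933 genes tested, where the median gene was at -0.004. In that comparison 8.28% of genes were called lower with a log2 fold change of at most -1. The treatment by kit term of RPE65 was -0.65 with a standard error of 0.25, the lower level in siHNRNPK being more marked in Ligation libraries. These values chose RPE65 and are given without a test. In bulk RNA, fewer cells with a transcript and less of it per cell cannot be told apart.

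Against the Scramble libraries the distance was smaller. Within TruSeq libraries, Scramble stood at 32.2% of siNTC5, and siHNRNPK at 37.4% of Scramble. The log2 fold change was -1.69 with a standard error of 0.11 for Scramble against siNTC5, and -1.41 with a standard error of 0.15 for siHNRNPK against Scramble. The siRNA, the purification kit and the count table all differ between Scramble and the other libraries and cannot be told apart. These 2 comparisons and the first one share libraries in pairs, so they are not independent views of RPE65.

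**Figure D1:**
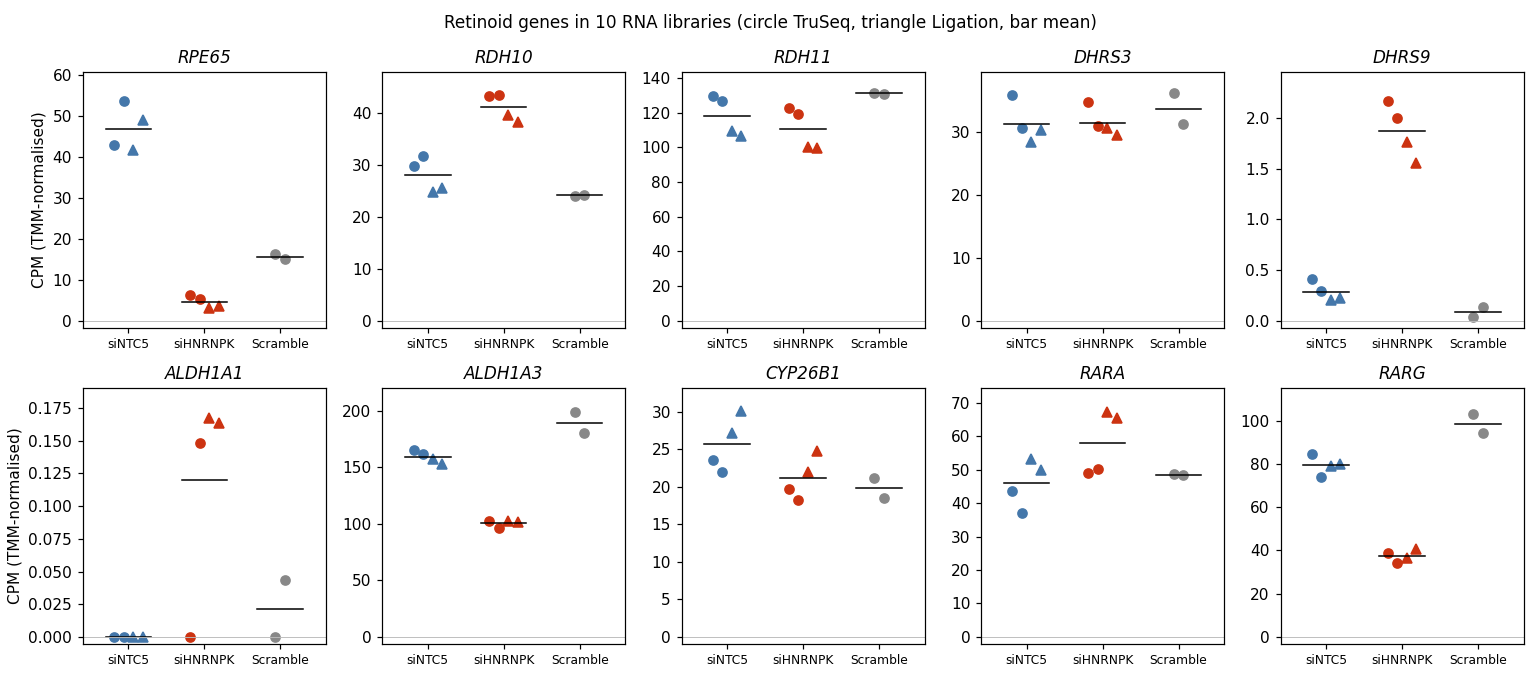
Level of each of the 10 genes (vertical axes, TMM-normalised CPM from 0, each gene on its own scale) in the siNTC5, siHNRNPK and Scramble libraries (horizontal axes). Circles are TruSeq and triangles Ligation libraries, and bars are group means. RPE65 falls into 3 separate levels near 46.9, 15.6 and 4.63 CPM. RDH11, DHRS3, CYP26B1, RARA and the scarcely read ALDH1A1 overlap between siNTC5 and siHNRNPK. In that comparison 56.5% of all tested genes did not overlap.

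Other markers of the retinal pigment epithelium were read in the same libraries. The 14 markers listed, RPE65 not among them, summed to 31.5 to 35.2 CPM in siNTC5, 33.2 to 37.9 in siHNRNPK and 30.4 to 35.1 in Scramble. RGR and OTX2, a visual cycle opsin and a transcription factor of that tissue, had no count in any of the 10 libraries. RLBP1, the retinal binding protein, was at most 0.130 CPM, and TYR, the pigment enzyme, at most 0.110. LRAT, which makes the ester that RPE65 uses, was at 12.6, 12.5, 12.7 and 15.3 CPM in siNTC5 and 8.22, 10.9, 9.06 and 8.58 in siHNRNPK. It was lower in every siHNRNPK library, with a log2 fold change of -0.52 and an adjusted p of 0.000441 (edgeR's quasi-likelihood test with Benjamini-Hochberg adjustment over all tested genes). Some other markers of the list moved the opposite way, which the sum does not show. BEST1, a chloride channel, rose from 2.01 to 3.25 CPM in siNTC5 to 4.61 to 6.11 in siHNRNPK (0.96, adjusted p = 6e-05, edgeR), and the pigment cell factor MITF from 1.87 to 2.95 CPM to 4.50 to 5.98 (1.07, adjusted p = 1.05e-05, edgeR). DCT, a pigment enzyme, was at 0.335 to 1.06 and 1.55 to 2.85 CPM, and it passed the filter on low counts through siHNRNPK only. PMEL, SERPINF1, SLC16A8 and RDH5 overlapped between these groups and were not called, at -0.10, 0.20, 0.11 and -0.72 (adjusted p = 0.589, 0.319, 0.6 and 0.136, edgeR). TYRP1 and TTR were too low to test. In the Scramble libraries LRAT was at 21.2 and 19.0 CPM, above every siNTC5 library, whereas RPE65 was below every one. SERPINF1 and PMEL were also below every siNTC5 library there, at -1.39 and -0.49 (adjusted p = 0.000263 and 0.0291, edgeR). So were SLC16A8, at 0.400 and 0.455 CPM in Scramble, and RDH5, at 0 and 0.130 CPM. BEST1, MITF and DCT overlapped between Scramble and siNTC5 and were not called.

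The genes around RPE65 on chromosome 1 were read in the same libraries. RefSeq places 1 gene over it, the lncRNA LOC124904198, which was not among the counted names; the strand counted is not given in the sources used here, so reads of overlapping genes may not be separated. DEPDC1, a gene known from dividing cells, ends 24.2 kb before the RPE65 start on the same strand. Its level was 157 ± 10.4 CPM in siNTC5 and 131 ± 5.16 in siHNRNPK (SD, n = 4 each), and 105 ± 15.3 in Scramble (SD, n = 2). DEPDC1 fell at -0.26 on the log2 scale (adjusted p = 0.000184, edgeR), and stood lower in Scramble than in siNTC5 at -0.61 (adjusted p = 8.79e-05, edgeR).

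On the other side, WLS, the carrier that exports Wnt proteins, lies 196.3 kb away. WLS rose from 56.9 to 75.0 CPM, at 0.41 on the log2 scale (adjusted p = 2.23e-06, edgeR), and stood at 79.6 CPM in Scramble. GNG12-AS1 was at 0.844 and 1.05 CPM and was not called, at 0.29 on the log2 scale (adjusted p = 0.39, edgeR). DEPDC1-AS1 was under 1 CPM in every library, and MIR1262 and LINC01707 were near 0, so these were not tested. In siHNRNPK against siNTC5 the 3 tested neighbours thus differed by 0.41 or less in size on the log2 scale, beside -3.32 for RPE65.

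The genes most like RPE65 over the 8 siNTC5 and siHNRNPK libraries were ranked by Pearson correlation of log2 CPM. The first 5 were DCTN1, a dynactin subunit, PRKACA, a catalytic subunit of protein kinase A, NUP210, a nuclear pore protein, PLCG1, a phospholipase C, and YWHAG, a 14-3-3 protein. Their r was 0.999 for DCTN1, PRKACA and NUP210, and 0.998 for PLCG1 and YWHAG, over n = 8 libraries and out of 13932 genes compared. The points are 2 groups that share kits, so any gene with a steady difference scores high. Their own log2 fold changes in siHNRNPK against siNTC5 were smaller than that of RPE65, at -1.85, -1.21, -1.43, -0.88 and -0.63. The Scramble libraries, which the ranking did not use, did not share one direction: against siNTC5 the log2 fold change was -0.02 for DCTN1, 1.28 for PRKACA, -0.05 for NUP210, -0.93 for PLCG1 and 0.52 for YWHAG. Of these 5, PLCG1 stood below siNTC5 in Scramble as RPE65 did.

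Among the other 9 members, 8 could be tested in siHNRNPK against siNTC5, and 6 of them passed an adjusted p of 0.05, 3 higher and 3 lower. In that comparison 71.5% of all tested genes passed, 35.5% higher and 36.1% lower, so the members' share is near that of the table as a whole. DHRS9 passed the filter on low counts only through siHNRNPK, which favours a higher call. Of the 660 genes in the table that passed this way, 84.8% were called, all of them higher. Without this gene, 5 of 7 members passed, 2 higher and 3 lower. RDH10, DHRS9 and RARA were higher, and ALDH1A3, CYP26B1 and RARG were lower. RDH11 and DHRS3 were not called, and ALDH1A1 was too low to test.

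RDH10 (chr8:73294602-73325281) oxidises retinol to retinal, the rate-limiting step toward retinoic acid in embryos. It was read at 29.9, 31.7, 24.9 and 25.7 CPM in siNTC5, 43.3, 43.5, 39.6 and 38.3 in siHNRNPK, and 24.1 and 24.3 in Scramble. Every siHNRNPK library was above every control. RDH10 rose with a log2 fold change of 0.56 ± 0.06 (SE) against siNTC5 (adjusted p = 3.28e-07, edgeR) and of 0.85 ± 0.08 against Scramble (adjusted p = 1.47e-11, edgeR). The 2 control sets differed by -0.40 ± 0.08 (Scramble against siNTC5, adjusted p = 0.000786, edgeR), a call lost without the kit term (adjusted p = 0.0843). RDH10 overlaps RDH10-AS1, which is also counted.

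RDH11 (chr14:67676800-67695764, minus strand) and DHRS3 (chr1:12567910-12618210, minus strand) mainly reduce retinal back to retinol; RDH11 overlaps GPHN, which is also counted. RDH11 was read at 129, 127, 109 and 106 CPM in siNTC5, 123, 119, 100 and 99.8 in siHNRNPK and 131 in each Scramble library. The TruSeq libraries were above the Ligation libraries in both groups, and the groups overlapped. Its log2 fold change was -0.09 ± 0.04 against siNTC5 (adjusted p = 0.0756, edgeR), which passed with unscaled totals (adjusted p = 0.0124) and without a filter on low counts (adjusted p = 0.0369). DHRS3, a gene that retinoic acid is known to raise, was at 35.9, 30.7, 28.5 and 30.4 CPM in siNTC5, 34.8, 31.1, 30.6 and 29.6 in siHNRNPK and 36.3 and 31.2 in Scramble. The ranges of DHRS3 overlapped in all 3 groups, and its log2 fold change was 0.02 ± 0.07 against siNTC5 (adjusted p = 0.844, edgeR).

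DHRS9 (chr2:169067077-169096167, plus strand), a short-chain dehydrogenase reported to oxidise retinol and steroids, was scarcely read in controls. It had 7, 7, 3 and 4 counts in siNTC5, 33, 27, 21 and 19 in siHNRNPK and 2 and 6 in Scramble, or 0.201 to 0.413, 1.55 to 2.17 and 0.040 to 0.130 CPM. All siHNRNPK libraries were above all controls. The fitted log2 change of DHRS9 was 2.72 ± 0.31, given without a test because of the filter. The summed counts, 100 against 21, gave a ratio of 6.67 after scaling (exact 95% interval 4.13 to 11.2, counting error only). Against Scramble, with 8 counts, the ratio was 22.7 (11.1 to 54.1). Both intervals leave out the spread between libraries and the effect of the filter, so they are no test of a difference. The fitted log2 change of DHRS9 against Scramble was 4.57, but 3.93 without Scramble replicate 1 and 5.51 without Scramble replicate 2.

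ALDH1A1 (chr9:72900671-72953053, minus strand) and ALDH1A3 (chr15:100879831-100916626, plus strand) oxidise retinal to retinoic acid. ALDH1A1 had no count in siNTC5, 0, 2, 2 and 2 counts in siHNRNPK and 0 and 2 in Scramble. In a single siNTC5 library a count of 0 allows up to 3 counts, or 0.125 to 0.201 CPM depending on the library. ALDH1A1 did not pass the filter on low counts, so no difference was tested. ALDH1A3 was read at 165, 161, 157 and 153 CPM in siNTC5, 102, 96.5, 102 and 101 in siHNRNPK and 198 and 180 in Scramble. Its siHNRNPK libraries lay close together and below every control. ALDH1A3 fell with a log2 fold change of -0.65 ± 0.05 against siNTC5 (adjusted p = 3.85e-10, edgeR) and of -0.92 ± 0.06 against Scramble (adjusted p = 7.19e-16, edgeR).

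CYP26B1 (chr2:72129238-72147862, minus strand), a cytochrome P450 that hydroxylates retinoic acid, was read at 23.5, 22.0, 27.2 and 30.1 CPM in siNTC5, 19.7, 18.2, 22.0 and 24.7 in siHNRNPK and 21.2 and 18.4 in Scramble. The groups overlapped across kits, while within each kit both siHNRNPK libraries were below both siNTC5 libraries. CYP26B1 fell by a log2 change of -0.27 ± 0.08 (adjusted p = 0.00458, edgeR). The call was lost without the kit term (adjusted p = 0.0764), in TruSeq libraries alone (0.0888) and with Scramble added to the controls (0.0778). Against Scramble its log2 fold change was -0.06 ± 0.11 (adjusted p = 0.628, edgeR).

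The receptors RARA and RARG differed in opposite directions. RARA (chr17:40309180-40357643, plus strand) was read at 43.7, 37.1, 53.2 and 49.9 CPM in siNTC5, 49.1, 50.3, 67.4 and 65.7 in siHNRNPK and 48.8 and 48.3 in Scramble. The siHNRNPK libraries were above siNTC5 within each kit, and the groups overlapped across kits. RARA rose by a log2 change of 0.35 ± 0.06 (adjusted p = 6.76e-05, edgeR), but against Scramble it was 0.04 ± 0.07 (adjusted p = 0.621, edgeR), a value that passed with upper-quartile scaling (0.22, adjusted p = 0.00487) and with unscaled totals (0.24, adjusted p = 0.00275). RARA overlaps RARA-AS1, which is also counted.

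RARG (chr12:53210569-53232209, minus strand) was read at 84.5, 73.8, 79.2 and 80.1 CPM in siNTC5, 38.9, 34.0, 36.4 and 40.6 in siHNRNPK and 103 and 94.2 in Scramble. Every siHNRNPK library was below every control, at 47.2% of the siNTC5 mean. RARG fell with a log2 fold change of -1.07 ± 0.07 against siNTC5 (adjusted p = 5.31e-11, edgeR) and of -1.43 ± 0.08 against Scramble (adjusted p = 4.25e-18, edgeR).

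**Figure D2:**
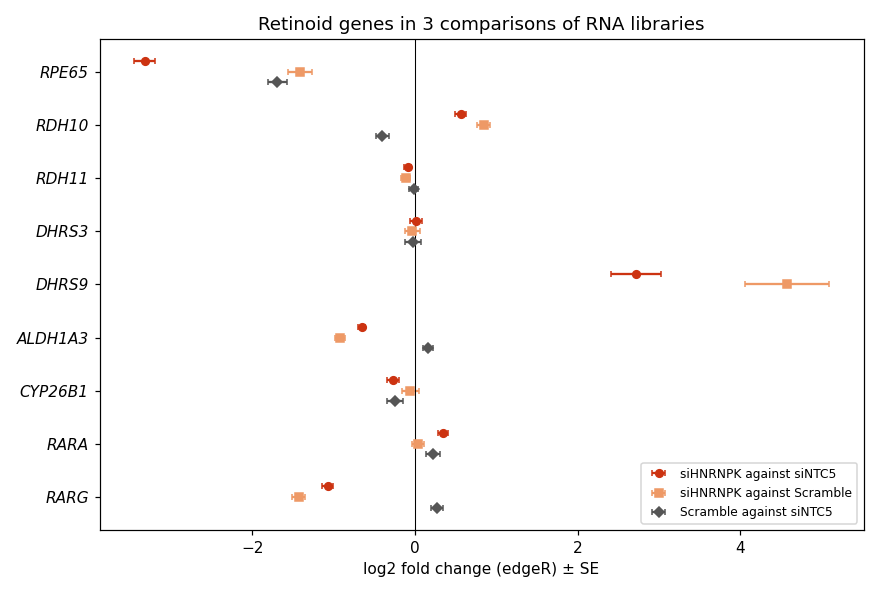
Log2 fold change (horizontal axis) of 9 genes (vertical axis) in siHNRNPK against siNTC5 (red circles), siHNRNPK against Scramble (orange squares) and Scramble against siNTC5 (grey diamonds), with bars of 1 standard error from edgeR. ALDH1A1 is not drawn because it was not tested, and DHRS9 has no value in Scramble against siNTC5. RDH10, ALDH1A3 and RARG lie on one side of 0 against both controls, and RPE65 lies at -3.32 and -1.41.

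The kit used for the library was asked about by a treatment by kit term. It was called for 0.129% of 13933 genes (18 genes, and 1639 at an unadjusted p under 0.05) and for 0 of the 8 members tested, with 0 of them at an unadjusted p under 0.05 and 0 called by DESeq2. The members' adjusted p ran from 0.564 (ALDH1A3) to 0.982 (RDH11) in edgeR's quasi-likelihood test with Benjamini-Hochberg adjustment, which does not show that the kits gave equal values.

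The comparison of Scramble with siNTC5 asked how far control libraries differ among themselves. Of the 7 members tested beside RPE65, 5 passed, 3 higher and 2 lower, where 68.6% of 14263 tested genes passed, 35.1% higher and 33.5% lower. RDH10 and CYP26B1 were lower in Scramble, and ALDH1A3, RARA and RARG were higher. The log2 fold change was 0.27 ± 0.07 for RARG (adjusted p = 0.00594, edgeR), 0.22 ± 0.08 for RARA (0.0336), 0.17 ± 0.06 for ALDH1A3 (0.027) and -0.24 ± 0.10 for CYP26B1 (0.0447). Several of these calls were lost when 1 library was left out. RARG was lost without Scramble replicate 1 (adjusted p = 0.0644, edgeR). ALDH1A3 was lost without Scramble replicate 1 (0.21) and without siNTC5 replicates 2 (0.0713) or 3 (0.0528). RARA was lost without either Scramble library (0.106 and 0.0947) and without siNTC5 replicates 2 (0.323), 3 (0.059) or 4 (0.0504). CYP26B1 was lost without Scramble replicate 2 (0.295) and without siNTC5 replicates 1 (0.125), 3 (0.0664) or 4 (0.0787). Of 14 alternatives run for each gene, the call was lost in 9 for RARA and 8 for CYP26B1, and in 5 for ALDH1A3 with 1 more that turned its sign. ALDH1A3 changed sign with unscaled library totals, to -0.016.

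In siHNRNPK against Scramble, 81.6% of 14217 genes passed, 38.8% higher and 42.8% lower, and so did 4 of the 8 members tested beside RPE65, or 3 of 7 without DHRS9. RDH10 and DHRS9 were higher and ALDH1A3 and RARG lower. RDH11 was at -0.11 ± 0.06 (adjusted p = 0.0702, edgeR) and DHRS3 at -0.03 ± 0.09 (adjusted p = 0.762, edgeR). Both comparisons with siHNRNPK share its 4 libraries, so RDH10, DHRS9, ALDH1A3 and RARG having one direction in both is not a repeat.

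The wider retinoid pathway was described from lists of 81 genes, the members included. Of these, 47 could be tested in siHNRNPK against siNTC5 and 38 passed, 23 higher and 15 lower, against 71.5% of all genes. Of the 47, 7 passed the filter on low counts only through siHNRNPK, 2 only through siNTC5 and 1 through libraries of both. The other 37 were past it in every library, and 29 of them were called, 16 higher and 13 lower, beside 72.5% of the 12561 such genes in the table. Their median log2 fold change was -0.04, beside -0.02 for those 12561 genes. Passing through 1 group favours genes that differ, so the values of those 9 are given without a test. RPE65, chosen for its fall, is counted among the lower genes of both the 38 and the 29 and in the median. Its call is not a result about the lists. Of the 81 genes, 9 had no count in any of the 8 libraries. A listed 0 is not read as absence: 312 of 25527 shared names were under 1 CPM in all 8 libraries but at 10 CPM or more in both Scramble libraries, a difference between count tables whose cause was not tested. DGAT1, DHRS4, RDH13 and PRAME of the pathway lists were among those 312, and no member was.

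Retinol uptake and binding gave 3 called genes of 5 tested, 2 higher and 1 lower, where 71.5% of all tested genes were called. This list and those below are small and were not tested as sets. CRABP2, which carries retinoic acid to the nucleus, was at 165 to 203 CPM in siNTC5 and 241 to 293 in siHNRNPK, without overlap. CRABP2 rose at 0.48 on the log2 scale (adjusted p = 3.29e-08, edgeR). RBP5, a cellular retinol binding protein, was at -1.05 from at most 1.30 CPM, and it passed the filter through siNTC5 only.

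Ester storage and the visual cycle gave 6 of 7, 2 higher and 4 lower, where 71.5% of all tested genes were called. Those past the filter in every library were the 4 lower, where 72.5% of such genes in the table were called. RPE65 is among these 4, and its own fall, for which it was chosen, is not a result about the list. Beside RPE65 and LRAT, the lipases LIPE and PNPLA4 were lower, at -0.91 and -0.59. RDH12, a photoreceptor retinal reductase, and ABCA4, the photoreceptor retinoid transporter, were at 2.42 and 1.11 from under 1.1 CPM, and both passed the filter through siHNRNPK only.

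Dehydrogenases and reductases gave 9 of 12, 6 higher and 3 lower, or 6 of 9, 4 higher and 2 lower, among those past the filter in every library. The shares over all genes were 71.5% and 72.5% in the same order. RDH16 was at 1.50 to 2.74 CPM in siNTC5 and 9.67 to 13.8 in siHNRNPK, and rose at 2.38 (adjusted p = 3.99e-11, edgeR). AKR1B10, an aldo-keto reductase that acts on retinal, was at 1.56 and passed the filter through siHNRNPK only. HSD17B6 was at -1.53 and passed through siNTC5 only.

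Retinal oxidation gave 3 of 3, or 2 of 2 without ALDH1A2, with ALDH1A3 lower and ALDH8A1 higher. With 71.5% of all tested genes called, so short a list says little as a set. ALDH1A2, the main retinal dehydrogenase of the early embryo, had 3 counts over the siNTC5 libraries and 97 over the siHNRNPK libraries, a ratio of 45.3 (exact 95% interval 15.0 to 223, counting error only). It passed the filter on low counts only through siHNRNPK, where it was at 1.41 CPM or more in each library. The interval leaves out the spread between libraries and the effect of the filter, so it is no test of a difference. ALDH8A1 was at 2.67 to 3.19 CPM in siNTC5 and 6.44 to 11.1 in siHNRNPK, and rose at 1.55 (adjusted p = 1.44e-07, edgeR). Of the 3 CYP26 genes only CYP26B1 could be tested.

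Receptors gave 5 of 5, 2 higher and 3 lower, or 4 of 4, 1 higher and 3 lower, without RXRB. The shares over all genes were 71.5%, and 72.5% of those past the filter in every library, so this short list says little as a set. RXRA, the partner of the RARs, was at 48.2 to 70.8 CPM in siNTC5 and 19.4 to 28.4 in siHNRNPK, without overlap. RXRA fell at -1.33 on the log2 scale (adjusted p = 1.35e-10, edgeR), beside RARG at -1.07. RXRB was at 1.01, with 24 counts at most in any of the 8 libraries, while the Scramble tables gave 65.6 and 66.1 CPM. It passed the filter through siHNRNPK only.

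Genes known to respond to retinoic acid gave 9 of 13 (69.2%), 7 higher and 2 lower. Without RARRES2, which passed the filter through siHNRNPK only, it was 8 of 12 (66.7%), 6 higher and 2 lower. Over all tested genes 71.5% were called, 35.5% higher and 36.1% lower, and 72.5% of those past the filter in every library. RARRES2, which encodes chemerin, was at 2.86, from 0.413 to 0.551 CPM in siNTC5. ICAM1 rose at 1.27 and HOXA5 at 1.05, each without overlap, and the larger adjusted p of the pair was 8.55e-07 for HOXA5 (edgeR). CYP26B1 and MEIS2 were the 2 that fell, and DHRS3, TGM2 and BTG2 were among those not called.

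**Figure D3:**
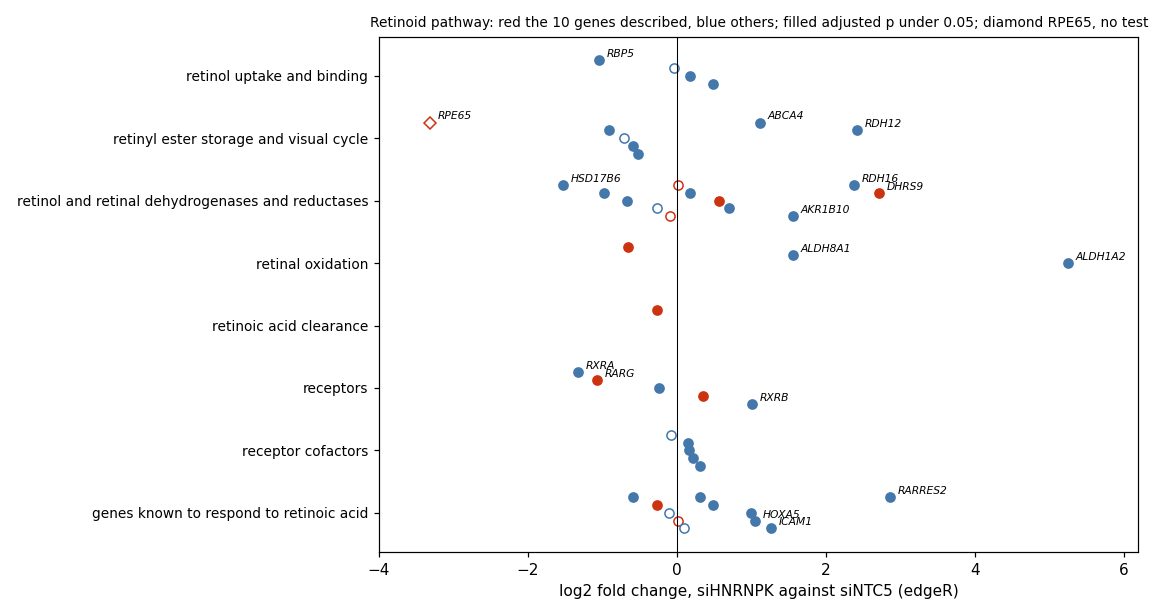
Log2 fold change in siHNRNPK against siNTC5 (horizontal axis) of tested genes of 8 retinoid pathway lists, apart from a few genes not reported here (vertical axis; vertical offsets within a list only separate points). Red marks the 10 genes described and blue the others. Filled circles passed an adjusted p of 0.05, and the open diamond is RPE65, given without a test. DHRS9, ALDH1A2, RDH12, ABCA4, AKR1B10, RXRB, RARRES2, RBP5 and HSD17B6 passed the filter through 1 group only. Their filled circles are therefore not to be read as a test. Genes with an absolute value of 1 or more are named; the lists hold genes on both sides of 0 apart from clearance, which has CYP26B1 alone.

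Domain lists from ChIP were read at the members by position, 1 list per antibody and siRNA and so without replicates or a test. The bodies of RPE65, RDH10, RDH11, ALDH1A1, ALDH1A3, RARA and RARG lay in no domain of the 7 lists. For comparison, the share of RefSeq genes with at least 50% of the body in a domain was 13.0% and 9.24% for LMNB1 (control and HNRNPK siRNA), 9.07% for H3K9me2 in control cells, 9.44% and 13.3% for H3K9me3, and 22.7% and 20.9% for H3K27me3. Among the 13478 of them that were tested for RNA the shares were lower, in the same order 2.96% and 2.57%, 1.2%, 2.94% and 5.91%, and 9.83% and 8.41%. Among the members it was 1 gene for H3K9me3 after HNRNPK siRNA (DHRS9), 1 for H3K27me3 in control cells (CYP26B1), and 0 in the other 5 lists.

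The domain nearest RPE65 was a control H3K9me3 domain, chr1:68490001-68630000, 40.0 kb before its start, with a deposited score of 0.757. It spans the start of DEPDC1. The HNRNPK siRNA list held no domain there, its nearest being 343.8 kb from RPE65. The nearest LMNB1 domain was 370.0 kb away in control cells and 345.0 kb after HNRNPK siRNA, and the nearest H3K27me3 domain 335.0 and 340.0 kb.

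CYP26B1 lay wholly inside a control H3K27me3 domain, chr2:71460001-72150000, which also held the upstream window printed above. The deposited score of this domain was 0.259, below the list median of 0.884. After HNRNPK siRNA no H3K27me3 domain covered CYP26B1, the nearest being 124.2 kb away. Its RNA level in those cells was lower against siNTC5, a call lost in 3 of 19 alternatives. Against Scramble it was not called (-0.06, adjusted p = 0.628, edgeR).

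DHRS9 met domains of both marks. An H3K9me3 domain of 70.0 kb, chr2:169015001-169085000, was listed after HNRNPK siRNA only and covered 61.6% of its body and the upstream window printed above. Its score was 0.62, below the list median of 0.709. A control H3K27me3 domain from position 169090001 covered 21.2% of the body, and after HNRNPK siRNA it began at 169120001, past the gene. DHRS9 RNA was higher in those cells.

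DHRS3, whose RNA level was not called, was reached by an H3K9me3 domain after HNRNPK siRNA, chr1:12595001-13090000, with a score of 1.157. It covered 46.1% of the body and all of the 5 kb on either side of the start. In control cells the domain began at 12625001, 6.8 kb from the gene.

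**Figure D4:**
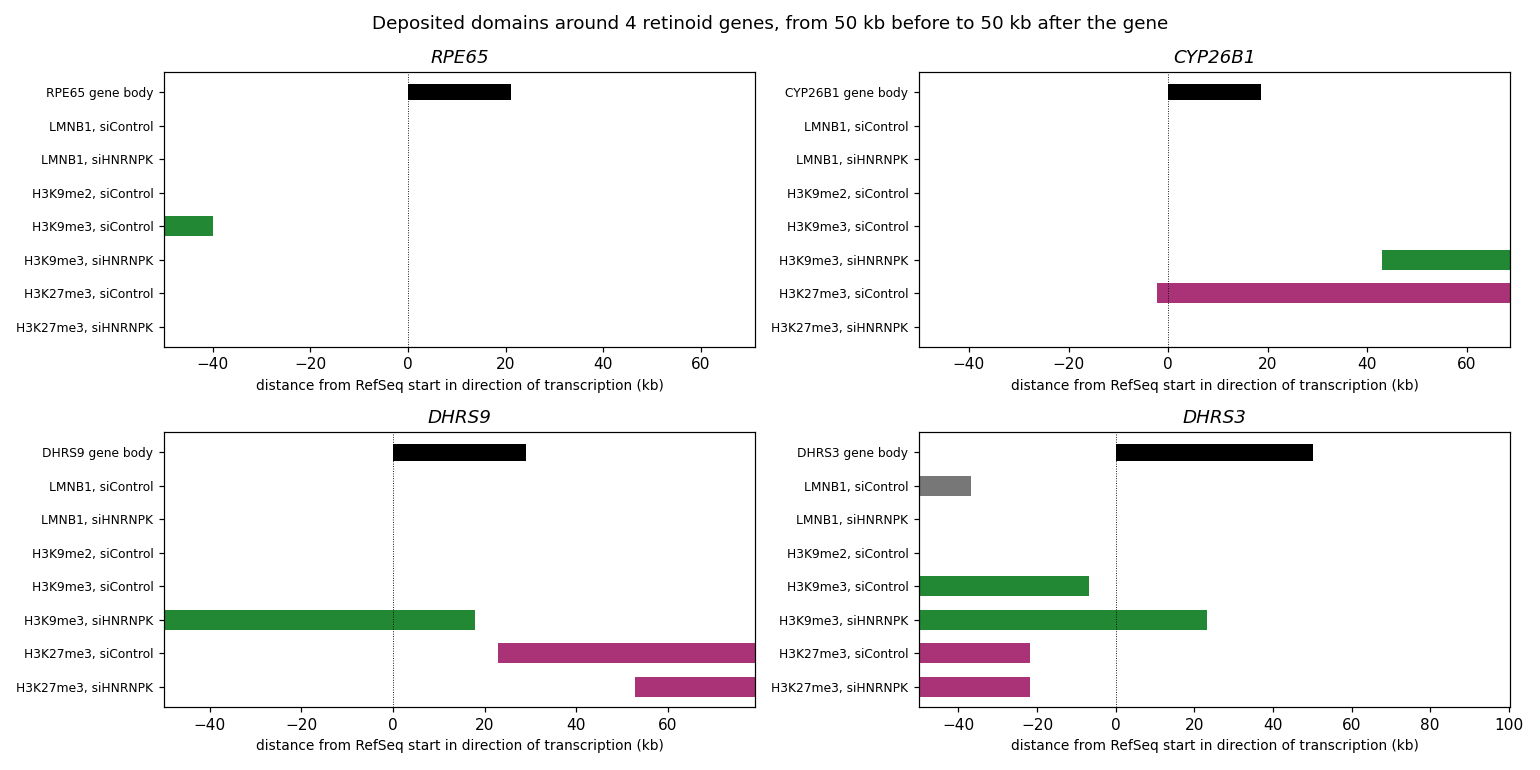
Deposited domains around RPE65, CYP26B1, DHRS9 and DHRS3 (horizontal axes, distance from the RefSeq start in kb along the direction of transcription; rows, the gene body in black and the 7 domain lists). Bars are cut at the edges of the window, from 50 kb before to 50 kb after the gene; no bar meets the RPE65 body, and the H3K9me3 bars over the starts of DHRS9 and DHRS3 are in the HNRNPK siRNA list.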

How the data were processed

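RNA was measured in 10 libraries. The authors deposited raw counts per gene symbol, made with STAR 2.7.1a and featureCounts (Subread 2.0.6) on hg38, per the submitters' processing notes; for Scramble these also name hg19. The deposited domain lists carry a score per domain and a domain length, another deposited quantity, and their caller and the score's unit are not given in the sources used here; Bowtie2 2.5.1, fastp 0.23.2 and deepTools 3.1.3 are named in the notes. Counts were filtered (filterByExpr), scaled by TMM and tested with edgeR 4.0.16 (limma 3.58.1, R 4.3.3), with library kit in the model and Benjamini-Hochberg adjustment over all tested genes. Comparisons with Scramble used the 25527 shared names. CPM were scaled once over all 10 libraries, and each fit had its own scaling.

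Members and lists were chosen with earlier results of these data known. Named beside the members were HNRNPK, pathway genes passing an adjusted p of 0.05 at a log2 change of 1 or more in size, the genes overlapping RPE65 and the 3 nearest on each side, and the 5 most like it over log2 CPM with a prior count of 2. LRAT, CRABP2, LIPE, PNPLA4, MEIS2, TGM2, BTG2 and the retinal pigment epithelium, colon and fibroblast markers named singly were added after their values were seen. Some genes of the lists that meet the rule are counted but not reported here by name. Same-numbered siNTC5 and siHNRNPK libraries deviated together. In replicates 1 to 4, r was 0.152, 0.531, 0.442 and 0.363 over 13933 genes, where numbers also mark the kit. After removal of kit and group it was -0.201, -0.150, -0.308 and -0.271. Residuals of such a fit lean below 0 in these pairs by construction, so the sign does not show opposed pairs. A replicate block was run as an alternative. Other alternatives were DESeq2 1.42.0, other scalings and filters, either kit by itself and leaving out libraries in turn. Unscaled totals, and TruSeq alone for Scramble, were chosen after seeing the data. Replicate pairs differed by more than counting noise (chi-square per gene of 2.24 to 25.2). Steps were tested on simulated data. Positions and sequences came from RefSeq tables of GRCh38.p14, read in Python 3.11.15 (numpy 2.4.6, pandas 2.3.3), with intervals from scipy 1.17.1 and plots from matplotlib 3.10.9; 9 of the 10 members had an upstream sequence.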

Additional observations from a re-analysis of the deposited data

Results flagged for a closer look

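In 2 of 19 groups of 4 libraries, 1 library stood apart from the rest of its group by the gap to its nearest neighbour; chance marks about 1 group in 20. ALDH1A3 in siHNRNPK replicate 2 was at 96.5 CPM, where the other 3 siHNRNPK libraries were at 101 to 102, a gap of 0.832 of the range. ALDH1A3 kept its lower call without this library. ALDH1A1 in siHNRNPK replicate 1 was at 0.0 CPM, where the others were at 0.149 to 0.168 CPM, a gap of 0.886 of the range. That is a difference between 0 and 2 counts.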

How the results depend on the processing

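In siHNRNPK against siNTC5, 6 of the 8 tested members passed, and between 5 and 7 did so under the alternatives; the replicate block in place of kit, which pairs same-numbered libraries, gave 6 and changed no other call. RPE65 ran from -3.72 (Ligation libraries alone) to -2.95 (Scramble added to the controls) on the log2 scale. In Scramble against siNTC5, 5 members passed beside RPE65, 2 to 4 when 1 library was left out, and 3 with upper-quartile scaling, with unscaled totals, with a mean count of at least 50 and with no kit term; the cause was not tested. In that comparison unscaled totals turned ALDH1A3 to -0.016 and moved the median of all genes to -0.18; the genes called were 5009 higher and 4774 lower, but 4345 and 5465 with upper-quartile scaling and 3610 and 6347 with unscaled totals. In siHNRNPK against Scramble the split was 5514 and 6082, but 6551 and 4994 with upper-quartile scaling, where the median gene was at 0.14, and 6668 and 4902 with unscaled totals, at 0.16. With Scramble added as controls RXRB turned to -2.28 (adjusted p = 0.352, edgeR). Of the pathway genes tested, RPE65 among them, 38 passed. The number was 37 to 40 with 1 library left out and 26 to 41 over all alternatives run. It was 26 of 34 at a mean count of at least 50 and 31 of 48 in TruSeq libraries alone. With Scramble added it was 32, with no kit term 33, and without a filter 41 of 72. Members mostly inside an H3K9me3 domain after HNRNPK siRNA numbered 1, but 0 for domains of at least 100 kb, 0 for scores at or above the median, 2 by any overlap and 2 by the start. For H3K27me3 in control cells it was 1, but 0 at or above the median score and 2 by any overlap. Depth limits DHRS9 and ALDH1A1 in controls, where counts were at or near 3.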
